A study of Mus musculus with 6 samples.

Results

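The Notch receptors, 3 of their ligands and 3 of their target genes were followed in the mesenchyme of the mouse Müllerian duct. This connective tissue surrounds the embryonic duct that gives rise to the oviduct and uterus, and the duct is lost in males. The 10 genes, chosen by symbol, were Notch1, Notch2, Notch3 and Notch4 (receptors), Jag1, Dll1 and Dll4 (ligands), and Hes1, Hey1 and Hey2 (targets). All 10 were present among the 37991 gene identifiers of the count tables, and all 10 passed the filter on low counts. The question put to them was whether the Hey genes moved with the Notch components or apart from them.

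The series held 3 female and 3 male libraries of embryonic day 14.5. Every embryo, of either sex, was of the genotype Amhr2Cre/+, R26R YFP/+ on a mixed C57BL/6J x 129/SvEv background, so both groups carried the Cre and the reporter, and sex was the only labelled difference. YFP marks cells in which the Amhr2-driven Cre is or was active, which is not proof that a sorted cell still expressed Amhr2. Each library was made from at least 100 ng of RNA of sorted cells pooled from 2 to 7 embryos. The labels call the replicates biological without saying how the pools were formed, so the p-values measure the spread between these pools.

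Notch receptors are membrane proteins that are cut when a Jagged or Delta-like ligand on a neighbouring cell binds them, and the freed inner part enters the nucleus, joins the DNA-binding protein RBPJ and switches on targets, foremost the Hes and Hey repressor genes. Hey genes are known as Notch targets in vessels and heart, and Hey1 is also known to be induced by BMP-SMAD signalling, the branch that anti-Müllerian hormone (AMH) uses. AMH from the testis drives regression of the male duct, and osterix, encoded by Sp7, acts downstream of this hormone according to the title of the series.

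Libraries held 22511872 to 24749859 counts in genes, and the markers of the labelled tissue were present in all of them. All 10 duct mesenchyme genes listed were tested, and their summed level was 4758 to 7428 CPM (the usual count scaled to library size, here with TMM factors), of which Amhr2 made up 529.9 ± 234 in female and 338.6 ± 158 CPM in male libraries (SD, n = 3). Most of the sum came from Col1a1, Col3a1 and Vim. None of the 10 passed by edgeR, 3 had an unadjusted p under 0.05, and Hoxa10, a duct patterning gene with the smallest p at −1.16 (SE 0.33, log2, male over female), was the only one that DESeq2 called. The sexes did not overlap for 1 gene higher in male (Pdgfra) and 3 lower (Emx2, Hoxa10 and Hoxa11), against 6.47% and 7.27% of all genes tested. Both libraries numbered 1 stood apart, with 17.5% (female) and 18.2% (male) of uniquely placed counts outside genes against 3.53% to 8.65% in the other 4. The first principal component, with 65.6% of the variance, separated libraries within each sex. The second, with 25.9%, separated the sexes (−62.2 to −32.0 in female and 36.3 to 59.9 in male). Markers of other cells were present at low to moderate levels and are given beside the results they move with. In a bulk library, fewer cells of a type and less RNA per cell cannot be told apart.

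Hey1 was the only 1 of the 10 genes to pass the adjusted p threshold of 0.05 in the edgeR fit over all genes with sex as the only term, and it was higher in male. Hey1 (ENSMUSG00000040289) encodes a basic helix-loop-helix repressor. In the order of the replicate numbers, which is used throughout, it was measured at 3.27, 4.32 and 2.80 CPM in female libraries and at 17.7, 22.1 and 23.7 CPM in the male ones, from 89, 88 and 70 against 464, 448 and 562 counts. The lowest male library held several times the highest female value, and the spread within each sex was small beside the gap. The mean was 3.46 ± 0.782 CPM in the female libraries and 21.2 ± 3.08 CPM in the male ones, and the fitted ratio of male over female was 6.11. On the log2 scale this was 2.61 (SE 0.36, edgeR adjusted p = 0.0281). Of the 15227 genes tested, 1.23% were called at the adjusted p threshold of 0.05 in either direction, with 0.841% called higher and 0.387% lower in male. The size of the Hey1 difference lay between 2.48 and 2.81 on the log2 scale when any single library was left out. The call was kept without male replicate 1 (edgeR adjusted p = 0.0324), and lost without female replicate 1, 2 or 3 (0.122, 0.0746 and 0.255) or male replicate 2 or 3 (0.107 and 0.187). Without both libraries numbered 1, which stood apart, Hey1 was at 2.68 (edgeR adjusted p = 0.0229). Without both libraries numbered 2, or both numbered 3, it was not called. Leaving out such pairs was added after the data were seen.

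**Figure D1:**
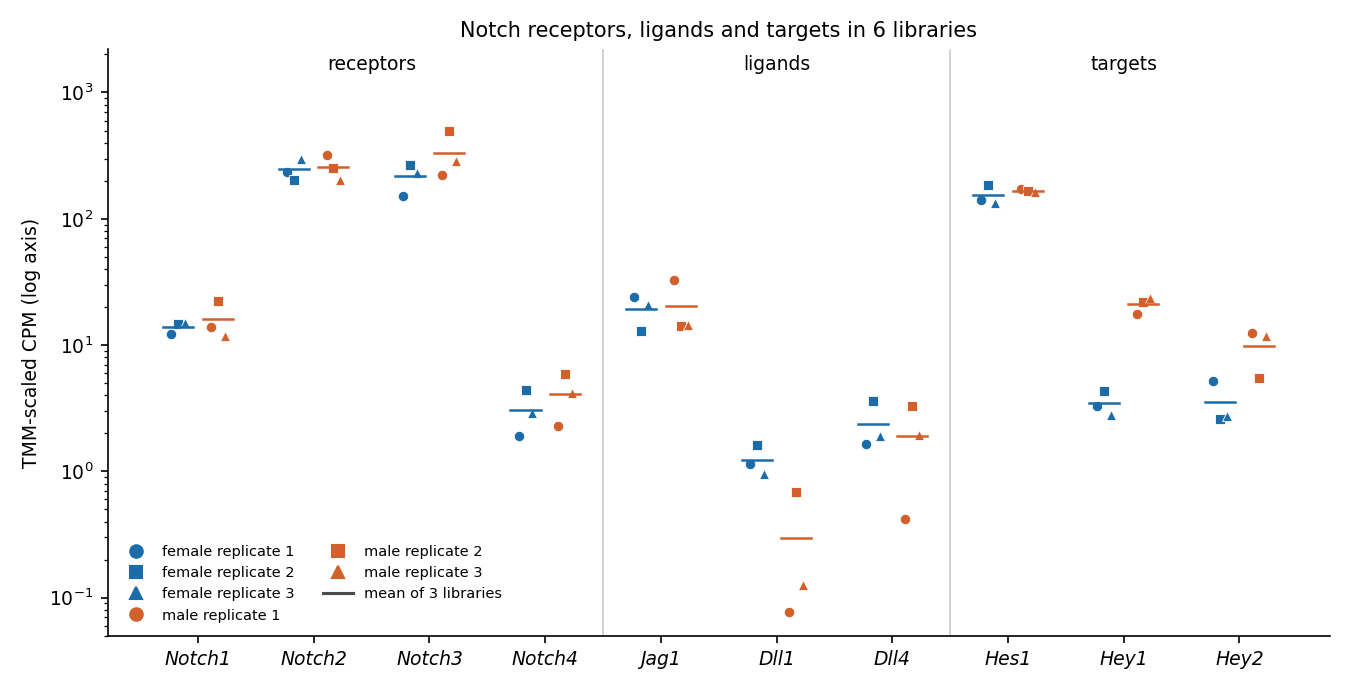
TMM-scaled CPM on a log axis for the 10 genes in each of the 6 libraries, female in blue and male in orange, with the shape of the symbol showing the replicate and the mean of 3 libraries as a line. Hey1 sits at 2.80 to 4.32 CPM in the female libraries and 17.7 to 23.7 CPM in the male ones, whereas Notch1, Notch2, Notch3, Notch4, Jag1, Dll4 and Hes1 overlap between the sexes.

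Hey2 (ENSMUSG00000019789), the second Hey repressor and best known from heart and artery, had the same sign with a smaller difference. Its levels were 5.17, 2.60 and 2.76 CPM in female libraries and 12.5, 5.48 and 11.8 CPM in the male ones. The sexes did not overlap, but male replicate 2 lay just above female replicate 1. The log2 fold change was 1.50 (SE 0.49), and Hey2 did not pass (edgeR adjusted p = 0.320). With an offset for transcript GC content and length it passed at 1.56 (SE 0.31, edgeR adjusted p = 0.0301); that fit called 6.40% of the 14674 genes with a GC value, 3.22% higher and 3.18% lower in male. Its adjusted p ranged from 2.37e-08 to 0.99998 over 18 alternatives, 3 of which put it past the threshold, and without both libraries numbered 1 it was at 1.69 (edgeR adjusted p = 0.193).

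The region before the start of Hey2 is shown because among the 8 of the 10 genes in the promoter table it was the only window that held letters bound by RBPJ. It is taken from RefSeq (GRCm38.p6), chr10:30842784-30843033, minus strand, the 250 bases before the annotated start, written 5′ to 3′ with the match in capitals.
Hey2: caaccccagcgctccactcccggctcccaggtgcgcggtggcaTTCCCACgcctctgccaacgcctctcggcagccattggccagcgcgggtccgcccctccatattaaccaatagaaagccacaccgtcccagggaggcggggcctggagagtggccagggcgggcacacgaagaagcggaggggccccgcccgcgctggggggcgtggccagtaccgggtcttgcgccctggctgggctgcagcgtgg
The motif searched was GTGGGAA, or TTCCCAC on the other strand, and the match begins 207 bases before the start. It occurred in 5.42% of the 32851 promoter windows of the same length. Hes1 and Hey1 were not in the table. A GC-rich element associated with SMAD proteins, GGCGCC, occurred in 9.59% of windows and among the 8 genes in 1 of the 2 windows of Dll1, and the E-box CACGTG, in 6.02% of windows, was in none of theirs. These are matches of letters, and no binding was measured.

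Hes1 (ENSMUSG00000022528), the most widely used readout of Notch activity and a repressor related to the Hey proteins, overlapped between the sexes. It was at 141, 187 and 134 CPM in female libraries and 172, 166 and 163 CPM in male ones. The male libraries lay inside the female range. The log2 fold change was 0.11 (SE 0.30) and did not pass.

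The 4 receptors did not pass in either direction, with log2 fold changes from 0.06 to 0.63. Notch2 (ENSMUSG00000027878), with 237, 204 and 299 CPM in female libraries and 318, 254 and 201 CPM in the male ones, overlapped between the sexes, at a log2 fold change of 0.06 (SE 0.34). Notch3 (ENSMUSG00000038146), the receptor typical of smooth muscle and pericytes, was at 152, 268 and 229 CPM in female libraries and 221, 496 and 286 CPM in male ones. Male replicate 2 was the highest, and male replicate 1 lay inside the female range. Its difference was 0.63 on the log2 scale (SE 0.43, edgeR adjusted p = 0.985).

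Notch1 (ENSMUSG00000026923), the receptor with the broadest roles in development, was lower in level, at 12.2, 14.7 and 14.99 CPM in female libraries and 13.9, 22.4 and 11.8 CPM in the male ones, a log2 fold change of 0.20 (SE 0.37). Only male replicate 2 lay above the female range. Notch4 (ENSMUSG00000015468), a receptor found mainly in endothelium, was at 1.91, 4.42 and 2.88 CPM in female libraries and 2.29, 5.88 and 4.17 CPM in male ones, a log2 fold change of 0.42 (SE 0.51). Exons of Notch1, Notch3, Dll1 and Dll4 overlap genes on the opposite strand in the reference annotation, and reads of such pairs cannot be told apart with a kit that does not mark strand.

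Among the ligands, the direction was not shared. Jag1 (ENSMUSG00000027276), a Jagged ligand, was at 23.8, 12.8 and 20.9 CPM in female libraries and 32.6, 14.3 and 14.4 CPM in male ones, with a log2 fold change of 0.09 (SE 0.47). Replicate 1 was its highest library in both sexes. Dll4 (ENSMUSG00000027314), the Delta-like ligand of arterial and sprouting endothelium, was at 1.65, 3.59 and 1.92 CPM in female libraries and 0.420, 3.31 and 1.94 CPM in male ones, with a log2 fold change of −0.34 (SE 0.74). Male replicate 1 was low, and the other 5 libraries overlapped.

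Dll1 (ENSMUSG00000014773), a Delta-like ligand of many progenitor cells, was near the limit of detection. Female replicates 1 to 3 held 31, 33 and 24 counts and male replicates 1 to 3 held 2, 14 and 3, which is 1.14, 1.62 and 0.959 against 0.0764, 0.692 and 0.126 CPM. The sexes did not overlap, in the direction opposite to Hey1. The log2 fold change of −2.08 (SE 0.81) had an unadjusted p of 0.0397 and did not pass (edgeR adjusted p = 0.488). It rests on 19 male counts, and without male replicate 2 it was −3.56.

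Counted together, 1 of the 10 genes rose, none fell and 9 did not pass by edgeR; 3 had an unadjusted p under 0.05 (Hey1, Hey2 and Dll1), against 9.18% of all genes tested. DESeq2, which called 5.06% of all genes (2.92% higher and 2.15% lower in male), and limma-voom called only Hey1 of the 10. The sexes did not overlap in 3 of 10, of which 2 were higher and 1 was lower in male, against 13.7% of all genes tested in either direction, 6.47% higher and 7.27% lower in male. The median log2 fold change of the 10 was 0.16, and that of all genes tested was −0.01.

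**Figure D2:**
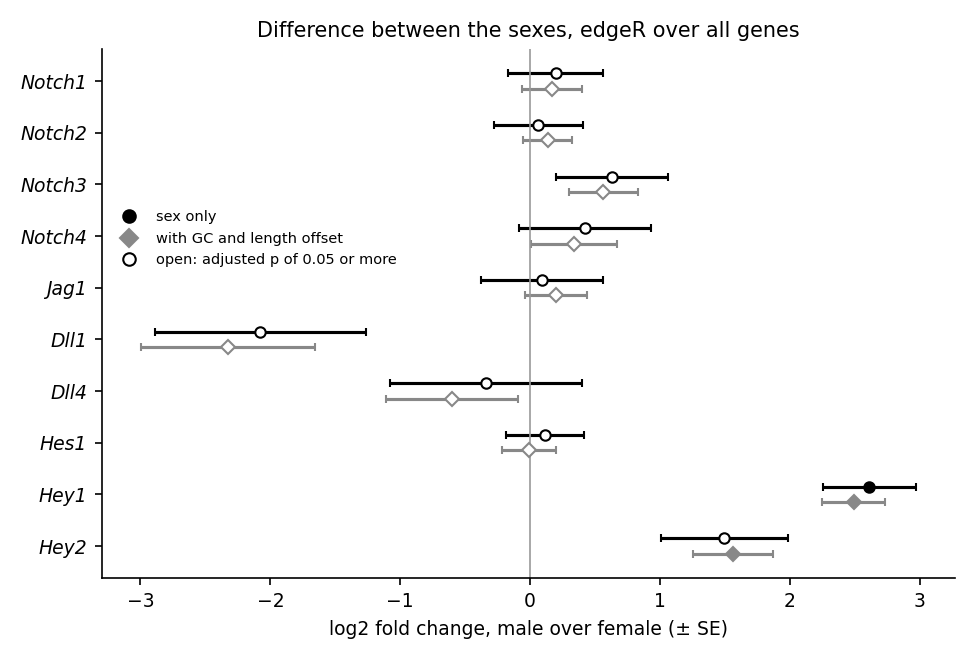
Log2 fold change, male over female, with its SE for the 10 genes in the edgeR fit with sex only (black) and with an offset for GC content and length (grey), filled where the adjusted p is under 0.05. Hey1 is filled in both fits (2.61 and 2.49), Hey2 in the second only (1.50 and 1.56), and the receptors lie between 0.06 and 0.63.

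Per kilobase of exon, Hes1 was the most abundant of the 10, at 78.8 ± 9.58 CPM per kb over the 6 libraries (SD), and did not overlap the next gene. Notch3 (34.0 ± 14.5 CPM per kb) and Notch2 (23.4 ± 4.49 CPM per kb) followed and overlapped each other. A gap separated these 3 from Hey1 (3.77 ± 3.03 CPM per kb over both sexes), Jag1 (3.40 ± 1.31), Hey2 (1.46 ± 0.952), Notch1 (1.05 ± 0.270), Dll4 (0.555 ± 0.302), Notch4 (0.445 ± 0.186) and Dll1 (0.182 ± 0.142 CPM per kb), each overlapping its neighbour in that order. Within a sex, Hey1 stood at 1.06 CPM per kb in female and 6.48 CPM per kb in male libraries on average, so it remained far below Hes1 in both. The lengths are those of the union of exons in GENCODE M21.

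Hey1 was also compared with each of the other 9 genes inside the same library, where the scaling of the library cancels apart from a small prior count. The log2 ratio of Hey1 to Hes1 was −5.40, −5.41 and −5.54 in the female libraries and −3.27, −2.90 and −2.78 in the male ones. All male libraries lay above all female ones, by 2.47 on average. The same separation held for the ratio of Hey1 to each of the 4 receptors, where the mean difference was 2.01 (Notch3) to 2.54 (Notch2), and to each of the 3 ligands, at 2.57 (Jag1), 3.22 (Dll4) and 4.72 (Dll1). Each of these 8 had an exact two-sided permutation p of 0.1, the smallest that 3 against 3 libraries can give (0.17 adjusted over 17 ratios), so no ratio could pass 0.05.

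The ratio of Hey1 to Hey2 was −0.65, 0.71 and 0.02 in female and 0.51, 2.00 and 0.99 in male libraries. The sexes overlapped, with a difference of 1.14 (exact permutation p = 0.2, 0.227 adjusted). As the smallest possible p is 0.1, this test could not decide whether the sex difference of Hey1 was unlike that of Hey2. Hey2 itself separated by sex from Jag1 (difference 1.43) and Dll1 (3.58), each with exact permutation p = 0.1, and overlapped when set against the other 6 genes. Its difference from Hes1 was 1.33 (exact permutation p = 0.2).

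**Figure D3:**
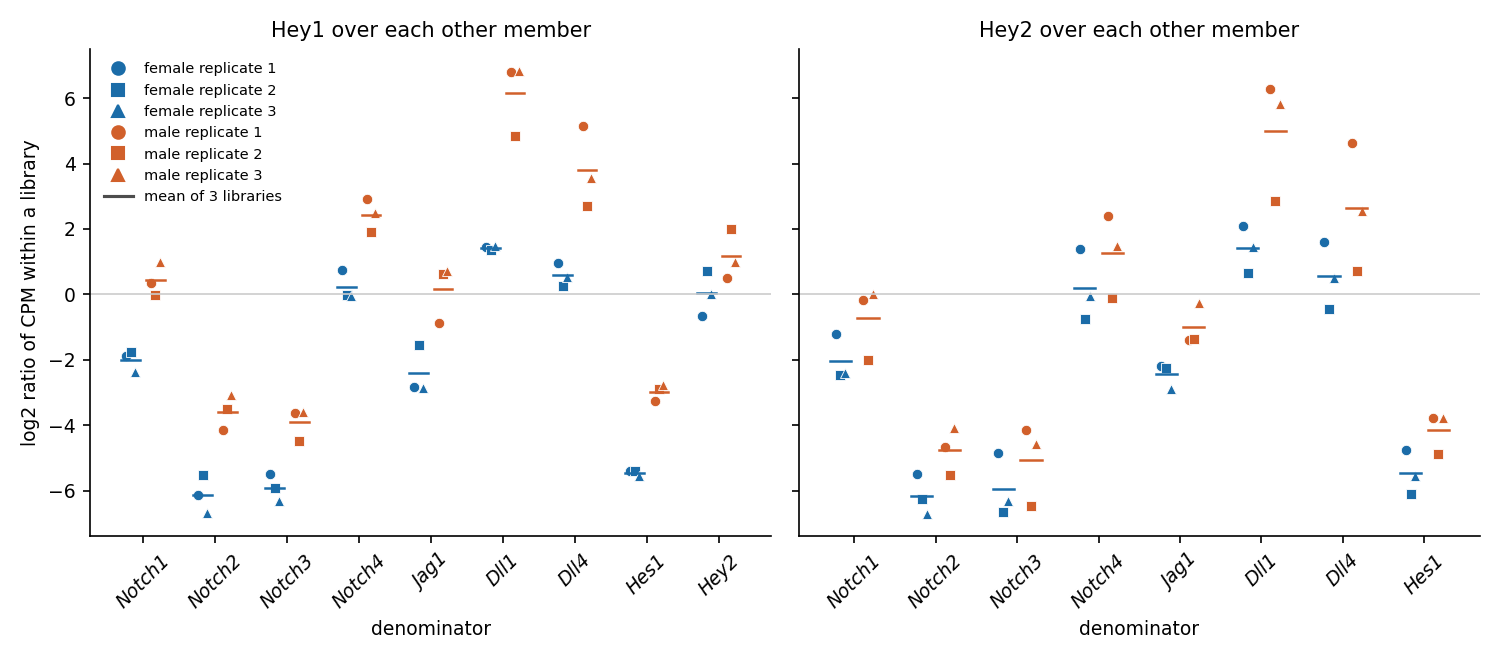
Log2 ratio of CPM within each library of Hey1 (left) and Hey2 (right) to each other gene, female in blue and male in orange, with the shape of the symbol showing the replicate and the mean as a line. Every male library lies above every female library for Hey1 over Notch1, Notch2, Notch3, Notch4, Jag1, Dll1, Dll4 and Hes1, whereas Hey1 over Hey2 overlaps.

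The libraries also differed inside each sex. Hey2 and Jag1 were higher in replicate 1 than in replicate 2, by 0.97 and 0.89 in female and by 1.17 and 1.19 in male on the log2 scale. Notch3, Notch4 and Dll4 had the opposite sign, at −0.82, −1.18 and −1.08 in female and −1.16, −1.33 and −2.75 in male, as had Notch1 (−0.27 and −0.68) and Dll1 (−0.48 and −2.27). Notch2 was at 0.22 and 0.32, and Hes1 at −0.40 and 0.05. Hey1 differed little between these libraries, at −0.40 and −0.32. Transcript GC content was 45.9% for Hey2 and 48.8% for Jag1, 50.7% for Hes1, 52.6% for Hey1, 53.6% for Notch2, 54.9% for Dll1, 55.9% for Dll4, 57.1% for Notch1, 59.6% for Notch3 and 61.2% for Notch4. Hey2 and Jag1, with the least GC, were the most positive in both sexes, and Notch4, with the most, was the most negative in female. Other genes did not keep this order. Notch2 was positive in both sexes, above Hes1 and Hey1, which have less GC. Notch1 differed less than Dll1 and Dll4, which also have less GC. In male, Dll1 and Dll4 were the most negative, but from few counts in replicates 1 and 2 (2 and 14 for Dll1, 11 and 67 for Dll4). The part of GC content in these values was not tested gene by gene.

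Of 54 further genes of the Notch pathway, 52 were tested, and none passed in either direction by edgeR. At an unadjusted p under 0.05 there were 4 (Mfng, Furin, Neurl1b and Dlk2, against the 9.18% of all genes), DESeq2 called Furin higher and Mfng lower, and limma-voom called none. These counts are near the shares of all genes called, 1.23% by edgeR and 5.06% by DESeq2. Their median log2 fold change was 0.03. The sexes did not overlap in 6 of the 52, of which 2 were higher and 4 lower in male, a share near the 13.7% of all genes (6.47% higher and 7.27% lower).

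The values with the smallest p lay among the genes that modify the receptors. Mfng (Manic fringe), which adds sugars to Notch and changes which ligand it answers, was at 3.52, 7.47 and 5.64 CPM in female libraries and 0.535, 0.889 and 1.26 CPM in male ones. The sexes did not overlap, at −2.62 on the log2 scale (SE 0.51, edgeR adjusted p = 0.0717), and DESeq2 gave an adjusted p of 0.00013. Its relative Lfng (Lunatic fringe) had −0.89 (SE 0.60) with overlapping sexes. Furin, a protease that matures the Notch receptors and also BMP and AMH precursors, was at 55.7, 115 and 99.2 CPM in female libraries and 157, 389 and 331 CPM in male ones, or 1.70 on the log2 scale (SE 0.48, edgeR adjusted p = 0.219). Pofut1 and Poglut1, which attach the first sugars, had 0.02 and −0.27. By length-scaled level over both sexes Furin led this group, at 20.8 CPM per kb, but only through the male libraries: its mean was 9.80 CPM per kb in female, where Poglut1 led at 20.5, and 31.9 CPM per kb in male.

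Among the other ligands, the Delta-like protein gene Dlk2 had −1.70 (SE 0.69) on the log2 scale, from 2.49 ± 1.45 to 0.766 ± 0.402 CPM, and Jag2 had 0.08. The matrix protein gene Mfap2 was the highest of that group per length, at 368 CPM per kb, with 0.37 (SE 0.54). Of the ligases that activate ligands, Neurl1b had −0.89 (SE 0.34), from 5.29 ± 0.766 to 2.85 ± 0.426 CPM, with no overlap. Mib2, the highest of these per length at 21.9 CPM per kb, had 0.66 (SE 0.52). None of the 9 genes of receptor cleavage had an unadjusted p under 0.05. Their log2 fold changes ran from −0.18 to 0.74, and Ncstn, a subunit of gamma-secretase, was the highest per length at 40.4 CPM per kb.

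In the nucleus, Rbpj, the gene of the DNA-binding partner, stood at 72.9 ± 31.5 CPM in the female libraries and 77.0 ± 40.5 CPM in the male ones, a log2 fold change of 0.08 (SE 0.54). Maml1, a co-activator and the highest per length of its group (12.9 CPM per kb), had −0.04 (SE 0.29). Repressor partners and inhibitors gave none with an unadjusted p under 0.05, and their highest per length were the co-repressor gene Ctbp1 (85.0 CPM per kb, log2 fold change −0.01) and the Deltex gene Dtx3 (66.1 CPM per kb, 0.01). Of the other targets, Heyl, the third Hey gene, was at 3.71, 8.21 and 6.84 CPM in female libraries and 3.90, 10.5 and 11.2 CPM in male ones, a log2 fold change of 0.45 (SE 0.53) with overlapping sexes. Nrarp, a feedback inhibitor that Notch induces, had −0.41 (SE 0.74) at means of 0.999 and 0.747 CPM, and Ccnd1 (cyclin D1), the highest per length at 60.8 CPM per kb, had 0.49 (SE 0.35). Hes5 and Hes7 were not tested. They held 5 counts (2 female and 3 male) and 44 counts (7 and 37) in all. The sexes did not overlap for Hes7, at 0.0367, 0.147 and 0.120 CPM in female and 0.267, 0.593 and 0.758 CPM in male libraries, near the limit of detection.

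Genes known to be induced by BMP-SMAD signalling gave different counts, with Hey1 left out of the list. This list, like the Notch lists, was chosen with earlier results of these data known. Of 12 tested, 3 rose (Msx2, Id4 and Bmper), against 0.841% of all genes, and none fell, against 0.387%. An unadjusted p under 0.05 was found in 9, against 9.18% of all genes. The male libraries lay above the female ones in 9, against the 6.47% of all genes named above. Their median log2 fold change was 2.46. Bmper, a secreted BMP-binding protein, had a level and a difference near those of Hey1, from 3.56 ± 0.358 to 20.02 ± 3.53 CPM, at 2.49 (SE 0.34, edgeR adjusted p = 0.0281). Id4, an inhibitor of basic helix-loop-helix proteins, had 2.86 (SE 0.41), and the homeobox gene Msx2 had 6.47 (SE 0.46). Id1 had −0.31 (SE 0.68). These genes come from the same 6 libraries and comparison as Hey1, and leaving out single libraries gave 0 to 5 calls among them, with 0 without female replicate 3 or male replicate 3. Without both libraries numbered 1, a setting added after the data were seen, 8 of the 12 rose. That fit called 225 of its 14953 genes higher and 129 lower in male. None of the 12 rose without both libraries numbered 2, or without both numbered 3.

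**Figure D4:**
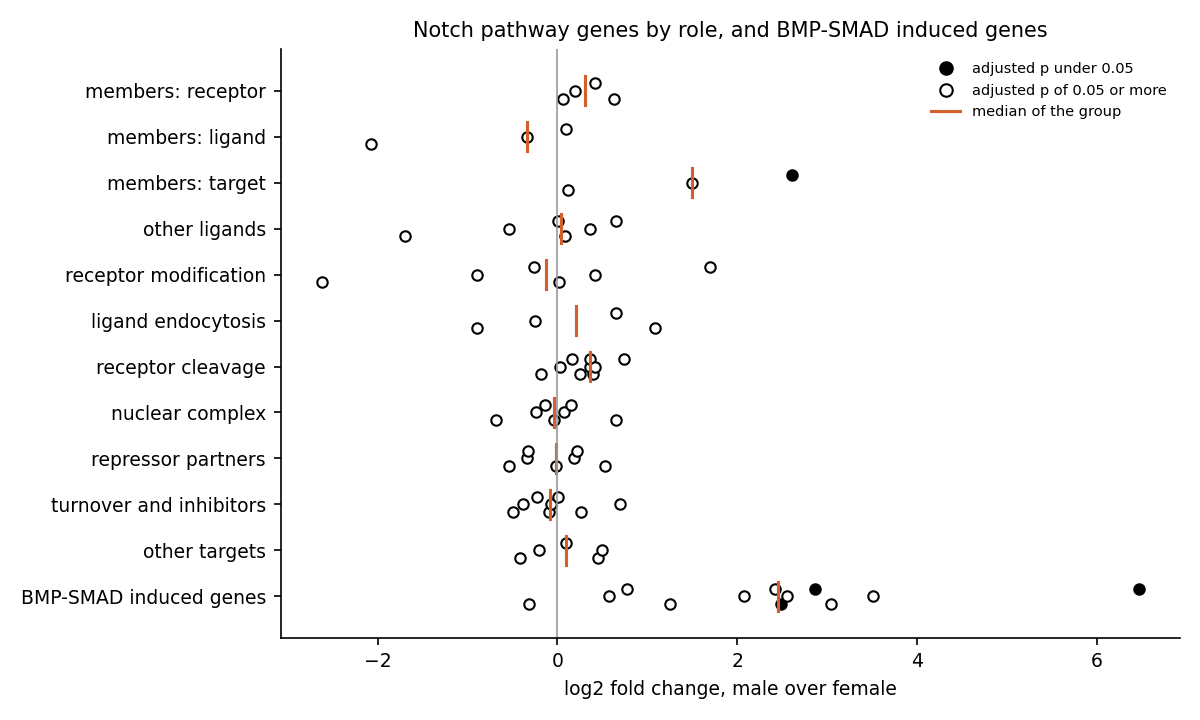
Log2 fold change, male over female, of each tested gene, grouped by role in the Notch pathway and followed by the BMP-SMAD induced list without Hey1, filled where the edgeR adjusted p is under 0.05, with the group median as an orange line. The only filled points are Hey1 among the Notch genes and Msx2, Id4 and Bmper in the last row, whose median is 2.46.

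The genes whose pattern over the 6 libraries was most like that of Hey1 were found by the root mean square difference of log2 CPM, each gene centred on its own mean, among 13339 other genes with a mean over the 6 libraries of at least 1 CPM. The nearest were Stmn2 (0.129), Hpca (0.172), Draxin (0.196), Sp7 (0.228) and Shisa2 (0.233). Sp7, the osterix gene of the series title, went from 29.0 ± 2.47 to 227.9 ± 49.4 CPM, a log2 fold change of 2.97 (SE 0.34). Hey2 was the 411th nearest to Hey1 (0.819), Notch3 the 1174th (1.07) and Hes1 the 3239th (1.24), and the other receptors and ligands ranked lower than Notch3. Dll1 had a mean over the 6 libraries below 1 CPM and was not ranked. For Hey2 the nearest were Fam124a (0.197), Sptssb (0.235), Ugdh (0.250), Rarb (0.258) and Vegfc (0.274), none of them called. The member of the 10 nearest to Hey2 was Hey1, at rank 1815 (0.819), followed closely by Jag1 at 2027 (0.835) and Hes1 at 2422 (0.859). Hpca (0.853 CPM in female and 4.99 CPM in male on average) and Sptssb (0.506 and 1.50 CPM) reached that mean only through the male libraries. The ranks carry no test and describe 6 libraries that all share the sex contrast and the differences between replicates.

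Notch4, Dll4, Hey1 and Hey2 are typical of endothelium, so markers of that cell type were read in the same libraries. Of 14 endothelial markers, 12 were tested, none passed by edgeR or limma-voom, 3 had an unadjusted p under 0.05, DESeq2 called Kdr higher and Erg and Esam lower, and none was at 0 in all libraries. Their summed level was 157.6 to 198.5 CPM in the female libraries and 346.4 to 420.3 CPM in the male ones, most of it from Kdr and Eng, and 21.8 to 34.3 against 19.2 to 41.2 CPM without those 2. The defining junction genes were low in both sexes: Pecam1 stood at 1.50 ± 0.287 CPM in the female libraries and 1.14 ± 0.296 CPM in the male ones and Cdh5 at 1.46 ± 0.356 and 1.84 ± 0.588 CPM. Kdr, a VEGF receptor gene, stood apart by 1.65 on the log2 scale (SE 0.48), and Erg and Esam by −2.52 (SE 0.55) and −1.61 (SE 0.43). Set against the summed endothelial level of its own library, Hey1 was higher in male by 1.50 on the log2 scale, Hey2 by 0.36, and Notch4 and Dll4 differed by −0.72 and −1.82. Against the sum without Kdr and Eng the differences were 2.51 for Hey1, 1.36 for Hey2, 0.28 for Notch4 and −0.81 for Dll4. The sexes did not overlap for Hey1 with either sum, and they overlapped for Hey2 and Notch4 with both, while Dll4 overlapped only with the second.

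**Figure D5:**
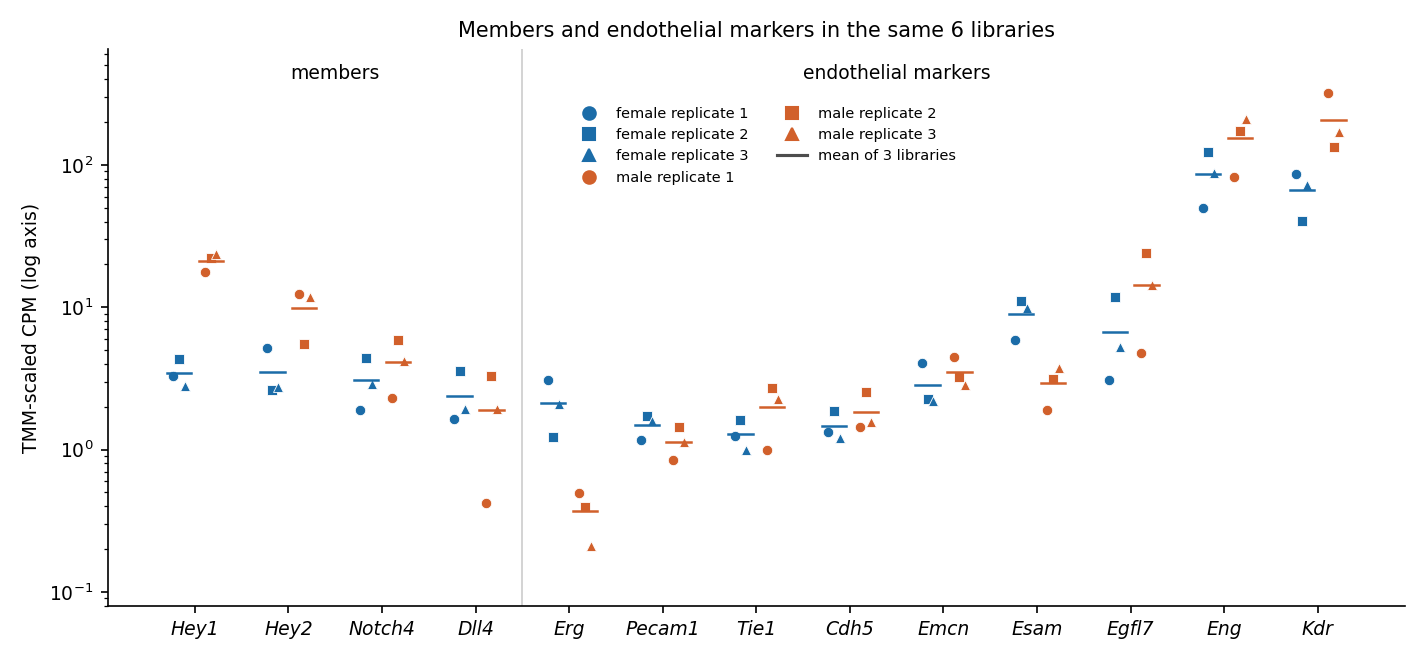
TMM-scaled CPM on a log axis for Hey1, Hey2, Notch4, Dll4 and the 9 endothelial markers with a mean of at least 1 CPM, female in blue and male in orange, with the shape of the symbol showing the replicate and the mean as a line. Pecam1 and Cdh5 lie at 0.840 to 2.52 CPM in both sexes, Kdr is higher in the male libraries, and Erg and Esam are lower.

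Markers of other cells moved with sex as well. Of 6 Sertoli cell genes, which belong to the fetal testis, 3 rose (Amh, Cst9 and Sox9), against 0.841% of all genes. The list summed to 17.5 to 18.1 CPM in the female libraries and 68.4 to 112.4 CPM in the male ones. Most of the female sum came from Sox9 (7.73 ± 0.878 CPM), Aard (4.95 ± 2.82 CPM) and Fgf9 (4.49 ± 1.99 CPM), so it was not a measure of Sertoli cells. Sox9 was at 45.2 ± 13.4 CPM in male, and Fgf9 had a log2 fold change of 0.11 (SE 0.55) with overlapping sexes. Dhh, at 5.95 on the log2 scale by edgeR from 4 female and 255 male counts, was called by DESeq2 only of these 2 tools. Of 6 neuronal genes 5 were tested and 1 rose, Stmn2, which was also the nearest pattern to Hey1; the sums were 14.9 to 17.4 and 59.9 to 78.6 CPM. Stmn2 made up most of them: without it they were 3.88 to 7.85 and 6.87 to 13.0 CPM and overlapped. Among the rest, Nefm did not overlap, at 0.791 ± 0.389 and 3.82 ± 1.77 CPM (log2 fold change 2.26, SE 0.59). It was called by DESeq2 but not by edgeR. Of the 5 tested, 4 had a positive and 1 a negative log2 fold change. In duct epithelium 6 of 8 genes were tested and Epcam fell, from 13.7 ± 3.08 to 2.57 ± 0.477 CPM, while the sums overlapped (169.4 to 565.6 and 124.6 to 385.5 CPM). Beside Notch3, the 8 pericyte and mural cell markers gave no call by edgeR or limma-voom and 1 unadjusted p under 0.05. Of the 8, 6 had a positive and 2 a negative log2 fold change. Their sums were 602.4 to 1106 CPM in the female libraries and 545.1 to 1116 CPM in the male ones. The largest part of these sums was Pdgfrb, lower in male on average, at 607.7 ± 179 and 339.5 ± 131 CPM (−0.84, SE 0.44, with overlapping sexes). The sums therefore do not show how the rest of the list moved. Acta2, a smooth muscle actin gene, had 2.73 (SE 0.57) and was called by DESeq2 alone. Mesothelium sums were 534.4 to 707.4 and 484.7 to 577.1 CPM, with Lrrn4, at −0.84 (SE 0.30), the smallest p. Macrophage and leukocyte sums were 4.86 to 9.10 and 6.19 to 10.2 CPM, with Cd68, at 0.65 (SE 0.43), the smallest p of 3 tested, and no marker of these lists was at 0 in all libraries. The part of these cells in the Hey1 difference was not tested.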

How the data were processed

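Per the labels' protocols, YFP-sorted cells of embryonic day 14.5 gave TruSeq v2 libraries sequenced as paired 76-base reads. The authors deposited raw counts, 1 table per library, by Ensembl identifier. The submitters' processing notes name TopHat, HTSeq and DESeq, with mm9 as build, but no roles. The annotation release and the use of strand in counting were not given in the sources used here. Lines that name no gene were left out; counts outside genes were 3.53% to 18.2% and counts on more than 1 gene 6.51% to 10.0% of uniquely placed counts. Symbols matched 32919 of 37991 identifiers. GENCODE M21 (GRCm38) gave symbols, exon lengths, transcript GC content and strand overlaps, and RefSeq (GRCm38.p6) the promoter.

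In R 4.3.3, 15227 genes kept by filterByExpr were tested after TMM scaling by edgeR 4.0.16 (robust quasi-likelihood, sex as the only term, two-sided, Benjamini-Hochberg over all genes, threshold 0.05). The SE was taken from F as the size of the log2 change divided by the root of F. Ratios were taken on log2 CPM (prior count 2) and tested by exact permutation (scipy 1.17.1). The fit was tested on simulated data. For the sex-only fit these were drawn gene by gene without deviations shared between genes, so the effect of such deviations on the calls was not covered. The 10 genes and the gene lists were chosen with earlier results of these data known. Named genes were the 10, pathway genes past the threshold or the 4 with the smallest p, the highest per length in each role, up to 4 called genes or the smallest p per other list, Pecam1 and Cdh5, and the 5 nearest patterns of Hey1 and Hey2. Lfng, Poglut1, Pofut1, Jag2, Rbpj, Heyl, Nrarp, Hes5, Hes7, Id1, Amhr2, Kdr, Eng, Esam, Dhh, Nefm, Pdgfrb, Aard, Fgf9, Pdgfra, Emx2, Hoxa11, Col1a1, Col3a1 and Vim were named after their values were seen. Alternatives were DESeq2 size factors, upper-quartile scaling, no filter, 1 CPM in 3 libraries, DESeq2 1.42.0, limma-voom (limma 3.58.1), a replicate block, a GC and length offset (splines, 5 df) alone and with the block, and leaving out each library; leaving out both libraries of a number was added after the data were seen.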

Additional observations from a re-analysis of the deposited data

How the results depend on the processing

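With 3 pools a sex the smallest exact p is 0.1, and counts as low as those of Dll1 limit the precision of its fold change. Hey1 was higher in male in all 18 alternatives (log2 fold change 2.38 to 2.81) and past the threshold in 11. Leaving out 1 library gave 2.48 to 2.81 for Hey1, 0 to 1 of the 10 genes called higher, 0 lower, 0 to 5 BMP-SMAD induced genes higher, and 0 to 141 higher and 0 to 32 lower of all genes. Leaving out both libraries of replicate 1, 2 or 3 gave Hey1 2.68, 2.76 and 2.38 (edgeR adjusted p = 0.0229, 0.160 and 0.99998), 225, 0 and 0 genes higher and 129, 0 and 0 lower, 1, 0 and 0 of the 10 genes higher, 8, 0 and 0 BMP-SMAD induced genes higher, and, in the pathway list, 1 higher and 1 lower without replicate 1 and 0 otherwise. Where no gene was called, 884 and 938 had an unadjusted p under 0.05 (without female or male replicate 3), or 1103 and 455 (without replicate 2 or 3 of both sexes).

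DESeq2 called 444 genes higher and 327 lower, 1 pathway gene each way and 8 BMP-SMAD induced genes; no filter and limma-voom called 5 of the latter. The GC and length offset called 473 higher and 466 lower, 2 of the 10 genes (Hey1 and Hey2, the latter 1.56), 1 pathway gene higher and 3 lower, and 7 BMP-SMAD induced genes; the cause was not tested. Same-numbered libraries were not shown to be paired: their deviations correlated at 0.927, 0.852 and −0.069 over genes for replicates 1, 2 and 3, and male replicate 3 correlated best with female replicate 2 (0.590). The replicate block called 1997 genes higher and 2167 lower (27.3% of those tested in all, 13.1% and 14.2%), 3 of the 10 genes higher (Notch3, Hey1 and Hey2, the last at 1.49) and 1 lower (Dll1), 8 pathway genes each way and 11 BMP-SMAD induced genes. With the offset as well, the replicate block called 2086 and 2367 genes (30.3%), 3 and 1 of the 10 genes (Hey2 at 1.56), 13 and 10 pathway genes, and 11 BMP-SMAD induced genes.

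Signs turned only in genes that did not pass. Hes1 was at −0.0065 with the offset and −0.022 with the offset and replicate block. Without female replicate 2, Notch2, Jag1 and Dll4 were at −0.06, −0.13 and 0.09, and without male replicate 1 at −0.12, −0.42 and 0.14. Notch1 was at −0.13 without male replicate 2. The opposite ends over single libraries left out were 0.40 (Notch1), 0.22 (Notch2), 0.29 (Jag1) and −1.01 (Dll4). Without replicate 1 of both sexes Notch2 and Jag1 were at −0.15 and −0.24, and without replicate 2 of both sexes Notch1 and Notch2 were at −0.10 and −0.07. None of the 17 within-library ratios changed sign in 7 alternatives each.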
